A study of Homo sapiens with 4 samples.

Results

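The proteasome genes of H1 human embryonic stem cells were described across the cells treated with XMD892, a compound that inhibits ERK5, a MAP kinase. Members were the rows of the deposited table whose symbol is PSM, 1 letter from A to G and a number. The rule leaves out pseudogenes and antisense genes, and it used no measured value. It found 46 genes among 19775 listed. The annotation used here, GENCODE release 29, holds 48 such genes. PSMA8, a testis subunit, and PSMB11, a subunit of the thymic cortex, were not listed.

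H1 is an established wild-type embryonic stem cell line, grown here in E8, a defined medium with insulin, FGF2 and TGFβ. The treated group was H1 in E8 with 1 µM XMD892 for 12 h, and 2 of its libraries (replicate 1 and replicate 2) carried reads that could be matched to labelled samples. The other labelled group, 2 samples of H1 in E8 alone for 12 h, was not analysed here, because the untreated columns are named for another culture time. What follows describes treated cells only and gives no effect of XMD892. Nothing in the labels states that separate cultures were used, so the spread between replicates may be technical.

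Reads on listed genes came to 18528689 for replicate 1 and to 20217648 for replicate 2. A normalized count is a gene's reads divided by the authors' size factor for the library. RPKM scales reads to library size and to exon length, with all exons of a gene merged. The markers of pluripotent cells POU5F1, SOX2, NANOG and LIN28A stood at 28.5 RPKM or more in each library. POU5F1 was higher in replicate 2 (39373 and 83719 reads, a log2 difference of 1.06) and LIN28A in replicate 1 (39841 and 32585 reads, -0.31). DCN, PTPRC, SOX17, FOXA2, TBXT and PAX6, markers of fibroblasts, blood cells and germ layers, were not listed under those symbols, and mesoderm T (an older symbol of TBXT) had 8 and 9 reads. The fibroblast collagen COL1A1 differed between the libraries, with 1429 reads in replicate 1 and 196 in replicate 2, as did COL1A2 (1242 and 867 reads). The part of these marker differences in those below was not tested.

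The proteasome degrades proteins that carry ubiquitin chains. Its barrel, the 20S core, stacks rings of alpha subunits, which form the gate, on rings of beta subunits, some of which cut the substrate. The 19S cap binds ubiquitin, unfolds the substrate with a ring of ATPases and removes the chain with a lid enzyme. Other caps, the PSME proteins, can open the core without ubiquitin, and PSMG proteins and PSMD5, PSMD9 and PSMD10 act as assembly chaperones. Pluripotent stem cells are known for high proteasome activity. The transcription factor NFE2L1 is known to raise proteasome genes as a set when the proteasome is impaired.

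Promoters are shown for 4 members that differ in level and in their direction between the libraries: core subunits higher in replicate 2 (PSMB3 and PSMA3), a lid subunit higher in replicate 1 (PSMD3) and the least abundant member (PSMB10). The sequences are the 250 bases before the transcription start in RefSeq on GRCh38.p14. They lie at chr17:38752491-38752740 on the plus strand, chr14:58244593-58244842 on the plus strand, chr17:39980557-39980806 on the plus strand and chr16:67936851-67937100 on the minus strand. Capitals mark TGACNNNGC (the antioxidant response element, which NFE2L1 binds with small MAF partners) in PSMB3 and PSMD3. They mark CCAAT, on either strand, in PSMA3 and the core of the interferon-stimulated response element (GAAA, any 2 bases, GAAA) in PSMB10.
PSMB3: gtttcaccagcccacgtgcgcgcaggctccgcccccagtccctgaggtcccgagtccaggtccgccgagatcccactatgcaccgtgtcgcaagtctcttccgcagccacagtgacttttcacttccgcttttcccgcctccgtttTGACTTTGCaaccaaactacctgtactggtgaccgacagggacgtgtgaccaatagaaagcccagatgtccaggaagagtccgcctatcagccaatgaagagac
PSMA3: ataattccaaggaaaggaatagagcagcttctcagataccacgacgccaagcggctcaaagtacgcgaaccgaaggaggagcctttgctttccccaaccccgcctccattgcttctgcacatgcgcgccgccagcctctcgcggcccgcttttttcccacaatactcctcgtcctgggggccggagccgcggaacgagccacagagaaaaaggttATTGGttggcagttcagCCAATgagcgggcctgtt
PSMD3: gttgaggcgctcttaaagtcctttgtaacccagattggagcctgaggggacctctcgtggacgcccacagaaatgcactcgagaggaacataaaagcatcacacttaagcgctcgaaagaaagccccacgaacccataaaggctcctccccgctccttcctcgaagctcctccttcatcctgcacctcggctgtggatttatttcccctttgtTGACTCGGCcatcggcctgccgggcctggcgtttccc
PSMB10: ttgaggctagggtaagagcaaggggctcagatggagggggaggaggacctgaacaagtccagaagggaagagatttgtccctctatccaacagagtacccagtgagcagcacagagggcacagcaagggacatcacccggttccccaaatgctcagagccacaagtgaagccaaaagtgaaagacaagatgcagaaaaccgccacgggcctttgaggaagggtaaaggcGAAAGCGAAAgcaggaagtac

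RefSeq windows were matched by symbol for 40 of the 46 members, and these genes have 49 windows, since some have several starts. TGACNNNGC, searched on both strands, was found in 13 of the 49 windows (26.5%), against 10.9% of all 35116 windows of the same length and 11.6% of the windows of listed genes. The 13 include core subunits (PSMA4, PSMB3), the immunoproteasome subunit PSMB9, cap subunits (PSMC5, PSMD3, PSMD12), PSME1, PSME2 and PSME4, and the chaperones PSMD5, PSMD9, PSMG1 and PSMG2. CCGGAAG, an ETS factor core, was in 20.4% of member windows and in 12.5% of listed windows (8.52% of all). CCAAT was in 36.7% of member windows against 32.3% of listed windows, and the GC box GGGCGG in 63.3% against 42.6% of all and 61.2% of listed genes. The interferon-stimulated response element core was in 5 windows, those of PSMA4, PSMB4, PSMB10, PSME2 and PSMG4. That is 10.2% of member windows, against 3.02% of all and 2.40% of listed windows. These are matches of letters and no test was made. The match in PSMB3 begins 104 bases before the start and that in PSMD3 37 bases before it.

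Together the 46 members took 0.583% of the reads in replicate 1 and 0.585% in replicate 2. In both libraries 42 members reached 1 RPKM, and their median over all 46 was 27.1 RPKM, beside 2.31 RPKM for the median gene of the table. In normalized counts the median member stood at 2735, and 39 of 46 were at 500 or more. The other 7 were PSMA2, PSMA6, PSMB8, PSMB9, PSMB10, PSMD9 and PSMG3. The scale of length matters for the level: with the length of the principal coding transcript in place of merged exons, the median was 57.3 RPKM. The order of the 46 members was largely kept between these scales (Spearman's rho = 0.92), though some members moved.

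**Figure D1:**
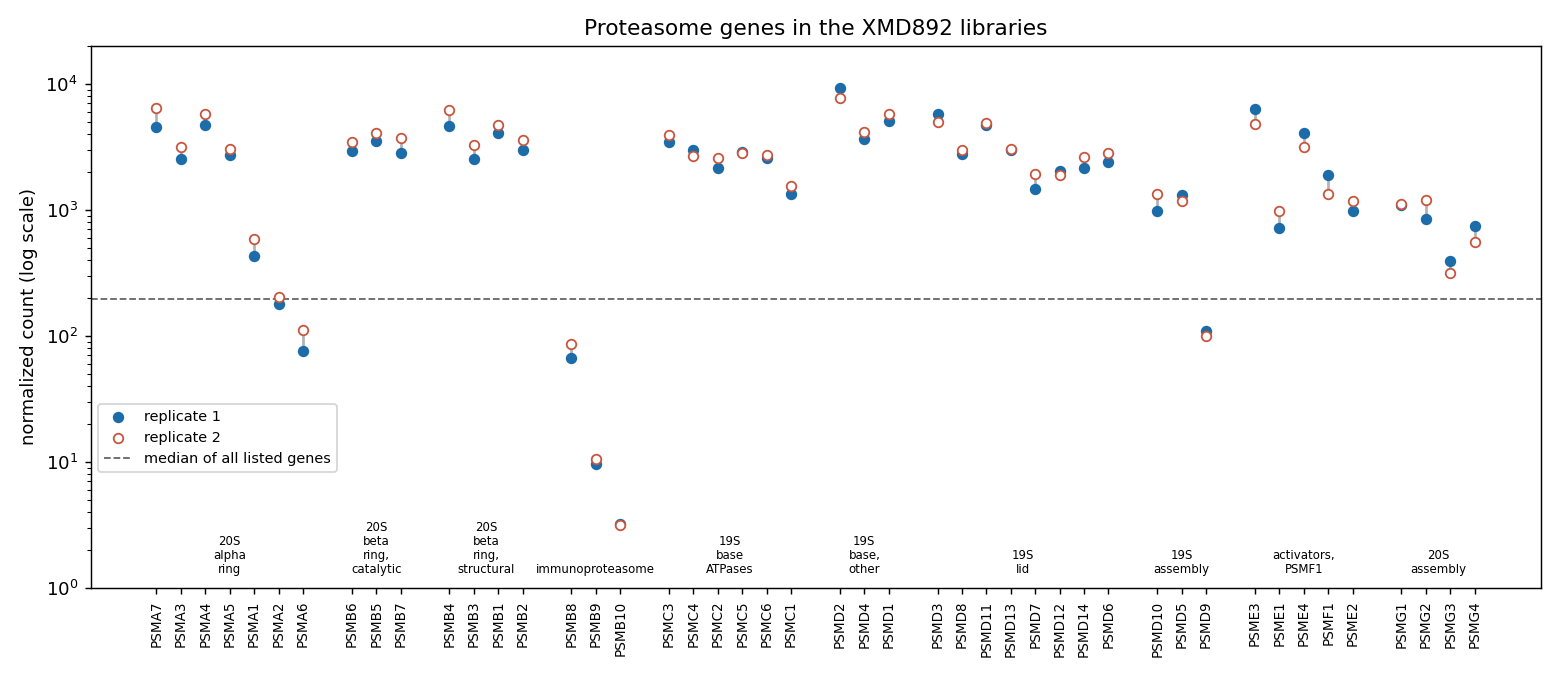
Normalized count (log scale) of each proteasome gene in replicate 1 (filled) and replicate 2 (open), grouped by subcomplex, with the median of all listed genes as a dashed line. Of the 46 genes 39 lie at a mean of 500 or more, while PSMA2, PSMA6, PSMD9, PSMG3 and the immunoproteasome genes lie lower.

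The structural alpha ring split into genes of high and of low counts. PSMA7 was the highest alpha gene at 131 and 171 RPKM in replicates 1 and 2 (151 ± 28.7, SD, n = 2). PSMA3 stood at 40.5 and 47.1 RPKM, PSMA4 at 33.9 and 38.6, and PSMA5 at 24.1 and 24.7. PSMA4 has a merged exon length of 6996 bases and a principal transcript of 4411, so its RPKM is low for its 4388 and 5454 reads. The remaining alpha genes were far lower: PSMA1 had 400 and 556 reads, PSMA2 166 and 192, and PSMA6 70 and 106. One copy of every alpha subunit is needed in each ring, and the 4 genes named first had 2340 reads or more in each library.

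PSMA1, PSMA2 and PSMA6 share most of their coding sequence with another gene. In GENCODE release 29, 100% of the coding bases of PSMA2 lie in exons of another gene on the same strand, as do 91.0% of those of PSMA1 and 89.7% of those of PSMA6. The same-strand genes are AC010132.3, AC018523.2 and AL121594.1, each annotated as protein-coding, and none of them is listed in the table. Across the 46 members, the 5 with more than 1 such coding base were these, PSMD9 (68.3%, mainly with AC069503.2) and PSMB10 (60.0%, with AC040162.1). Their mean normalized counts ran from 3.19 to 508, against a range of 10.1 to 8517 in the other 41. PSMB8 and PSMB9 were the lowest members without shared coding bases. The counting rule for reads that fall in 2 genes is not given in the sources used here. The levels of these 5 genes are therefore uncertain. In the annotation 3 pseudogenes also carry the name of PSMA2 and 4 that of PSMA6. The part of the overlap or of these pseudogenes in the levels was not tested.

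On GRCh38 these genes are PSMA1 (chr11:14504874-14643635, minus strand), PSMA2 (chr7:42916857-42932223, minus), PSMA6 (chr14:35278633-35317493, plus), PSMD9 (chr12:121888731-121918297, plus) and PSMB10 (chr16:67934502-67937087, minus). The percentages count coding bases of the member that lie in exons of the other gene. Whether these bases are coding in the other gene was not examined. Exon bases outside the coding sequence are shared too: PSMD9 shares 1307 exon bases with AC069503.2, while 457 of its coding bases are shared on the same strand.

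**Figure D2:**
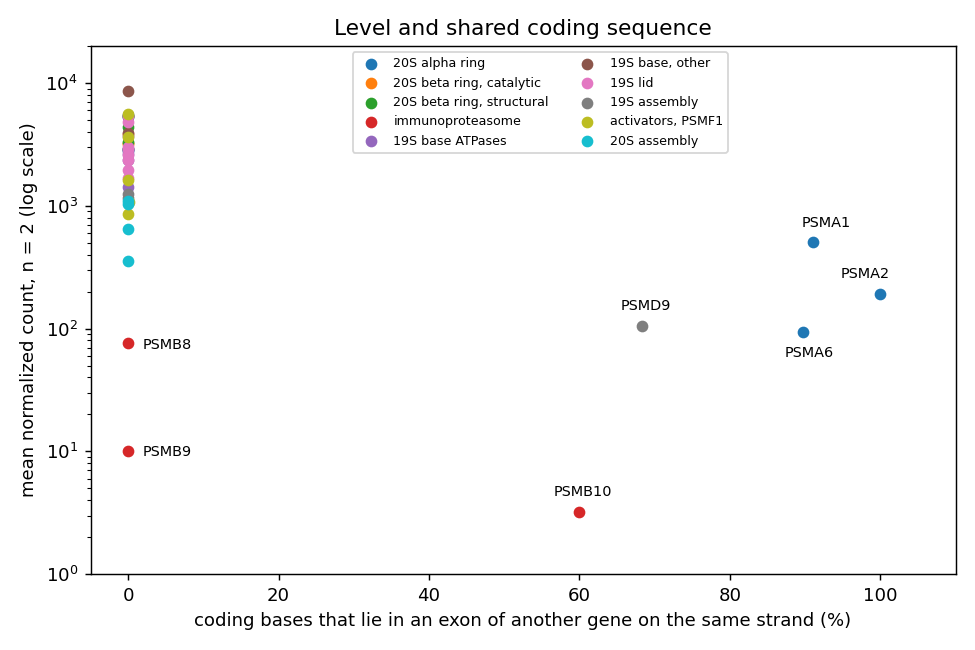
Mean normalized count over the 2 treated libraries (log scale) against the share of coding bases that lie in an exon of another gene on the same strand, 1 point per member coloured by subcomplex. The 5 genes at 60.0% to 100% lie at 508 or below, and PSMB8 and PSMB9 are low at 0%.

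The beta ring was more even. Its catalytic subunits had similar levels: PSMB6 (caspase-like activity) stood at 101 and 112 RPKM, PSMB5 (chymotrypsin-like activity) at 101 and 109, and PSMB7 (trypsin-like activity) at 79.9 and 96.6. In RPKM the ranges of PSMB5 and PSMB6 overlapped, and those of PSMB6 and PSMB7 did not. PSMB5 is at chr14:23016543-23035230 (minus strand). Among structural beta genes PSMB4 led at 108 and 135 RPKM, followed by PSMB3 at 109 and 131 and PSMB1 at 90.9 and 98.5. PSMB2 was lower at 31.2 and 34.7 RPKM, and with principal transcripts as the length it remained the lowest of these 7 at 59.1 RPKM.

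The immunoproteasome subunits replace the catalytic beta subunits after interferon and favour peptides for MHC class I. PSMB8, the counterpart of PSMB5, had 62 and 81 reads (1.12 and 1.34 RPKM), against 3289 and 3875 reads of PSMB5. PSMB9 had 9 and 10 reads and PSMB10 3 and 3. PSMB9 and PSMB10 give little precision on so few reads. The counting interval of the difference between the libraries ran from -1.33 to 1.60 on the log2 scale for PSMB9. For PSMB10 it ran from -2.93 to 2.88. PSMB10 shares 60.0% of its coding bases with AC040162.1 on the same strand, which had 36 and 8 reads, so its level is uncertain. PSMB8 also shares exon bases with the antisense gene PSMB8-AS1, and the strand setting of the counting is not given in the sources used here. Of the 12 listed genes of MHC class I presentation and interferon signalling, 9 reached 1 RPKM in both libraries. The peptide transporter TAP1 stood at 2.00 ± 0.249 RPKM and the interferon-induced factor IRF1 at 0.270 ± 0.0395. Of the 11 genes of this list at the expression minimum, 2 differed by 1.5-fold or more between the libraries, no larger a share than the 26.6% of all tested genes that did. B2M, the light chain of MHC class I, had 810 and 1773 reads (2.15-fold), and TAP2, whose coding bases are 98.6% shared with another gene, had 102 and 50 (2.06-fold).

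In the 19S base, the ATPases PSMC1 to PSMC6 unfold the substrate and open the gate. PSMC3 was the highest at 75.7 and 80.4 RPKM, then PSMC4 at 62.7 and 52.2. PSMC2 (30.3 and 34.3) and PSMC5 (32.4 and 29.8) overlapped, and PSMC6 stood at 17.4 and 17.1. PSMC1 was the lowest at 10.8 and 11.7 RPKM. Of its coding bases 47.7% lie in exons of NRDE2 on the opposite strand, and 13 pseudogenes carry its name in the annotation. Its level is uncertain for both reasons. With principal transcripts the ATPases ran from 15.6 RPKM for PSMC1 to 112 for PSMC3.

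The other base genes and the lid were all above 13 RPKM in each library. The scaffold PSMD2 had the most reads of any member, 8608 and 7385 (85.2 and 67.0 RPKM). The second scaffold PSMD1 stood at 48.8 and 52.3 RPKM and the ubiquitin receptor PSMD4 at 60.5 and 64.8. The lid was led by PSMD3 at 58.9 and 46.9 RPKM. PSMD14, the deubiquitinase of the lid, stood at 14.0 and 15.9 RPKM, and PSMD6 was the lowest at 13.1 and 14.5. Both have long merged exons, and with principal transcripts PSMD14 stood at 58.9 and PSMD6 at 88.2 RPKM, while PSMD12 was then the lowest at 21.7 RPKM.

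Among alternative caps, PSME3, which caps the core in the nucleus, was the highest at 61.7 and 43.6 RPKM. PSME1 and PSME2, the interferon-inducible pair that forms a mixed ring, stood at 20.4 and 25.9 and at 13.8 and 15.5 RPKM. PSME4, a single large activator, stood at 20.1 and 14.5 RPKM and PSMF1, a core-binding regulator, at 18.0 and 11.8. The core assembly chaperones had PSMG1 at 21.8 and 20.6 RPKM, PSMG2 at 12.8 and 16.7, PSMG3 on 363 and 298 reads (8.76 ± 1.75), and PSMG4 at 3.56 and 2.51. PSMG4 has a merged exon length of 10418 bases and a principal transcript of 838, and with the latter it stood at 37.7 RPKM. For the base chaperones PSMD10 was at 19.9 and 25.7 RPKM and PSMD5 at 14.8 and 12.4. PSMD9, which shares coding bases, had 102 and 95 reads.

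The libraries were then compared, gene by gene, as log2(normalized count + 1) in replicate 2 minus replicate 1. With 1 library on each side there is no test of any such difference. Of the 46 members, 45 reached the minimum mean normalized count of 10, and PSMB10 did not. Of these 45, 0 differed by 1.5-fold or more, where 26.6% of all 16148 genes at that minimum did (12.9% higher in replicate 2 and 13.7% in replicate 1). At a mean normalized count of 500 or more, 0 of 39 members did, against 12.3% of 7199 genes (6.07% higher in replicate 2 and 6.18% in replicate 1). The largest gap was that of PSMA6, 1.48-fold, on 70 and 106 reads. The median absolute difference of the 39 members at 500 or more was 0.25 on the log2 scale, beside 0.24 for all genes at that level, so the typical gap was close to the background. Counting error alone was smaller than many gaps: the 95% counting interval excluded equal levels for 36 of 45 members, against a background of 58.1%, and for 34 of the 39 at 500 or more, against 74.1%.

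By direction, all 14 standard core genes, 7 alpha and 7 beta, had more in replicate 2. Their log2 differences had a median of 0.30 and ran from 0.14 for PSMA5 to 0.57 for PSMA6. By any amount, 52.1% of all tested genes and 53.5% of those at 500 or more were higher there. PSMA7 had a normalized count of 4549 in replicate 1 and 6395 in replicate 2, a log2 difference of 0.49 with a counting interval of 0.43 to 0.55. PSMB4 differed by 0.43 (4623 and 6228) and PSMB7 by 0.38 (2838 and 3684). Without the 3 alpha genes that share coding sequence, the median of the other 11 was 0.29.

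The 19S cap was mixed, where 12 of 17 base and lid genes had more in replicate 2 (median difference 0.12). PSMD7, a lid scaffold, differed most toward replicate 2 (1452 and 1933 normalized counts, 0.41). Some coding bases of PSMD7 lie in exons of another gene on the opposite strand. With the strand setting not given, the values of PSMD7 are uncertain. PSMD2 (9240 and 7793, -0.25), PSMD3 (5813 and 4964, -0.23) and PSMC4 (2976 and 2656, -0.16) were higher in replicate 1. Scaling by total reads moved the median of all genes from 0.023 to -0.077. On that scale 9 of the 17 had more in replicate 2 (median 0.021), and the median of the lid turned from 0.086 to -0.015. The core counted 14 of 14 on both scales.

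Activators and chaperones differed in both directions. PSMF1 had normalized counts of 1895 and 1337, a log2 difference of -0.50 with a counting interval of -0.61 to -0.40. PSME3 (6323 and 4790, -0.40), PSME4 (4085 and 3177, -0.36) and PSMG4 (739 and 557, -0.41) were also higher in replicate 1. PSME1 (722 and 986, 0.45), PSMG2 (853 and 1195, 0.48) and PSMD10 (974 and 1347, 0.47) were higher in replicate 2. The interferon-inducible partners PSME1 and PSME2 thus lay on one side of 0 and PSME3 and PSME4 on the other.

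**Figure D3:**
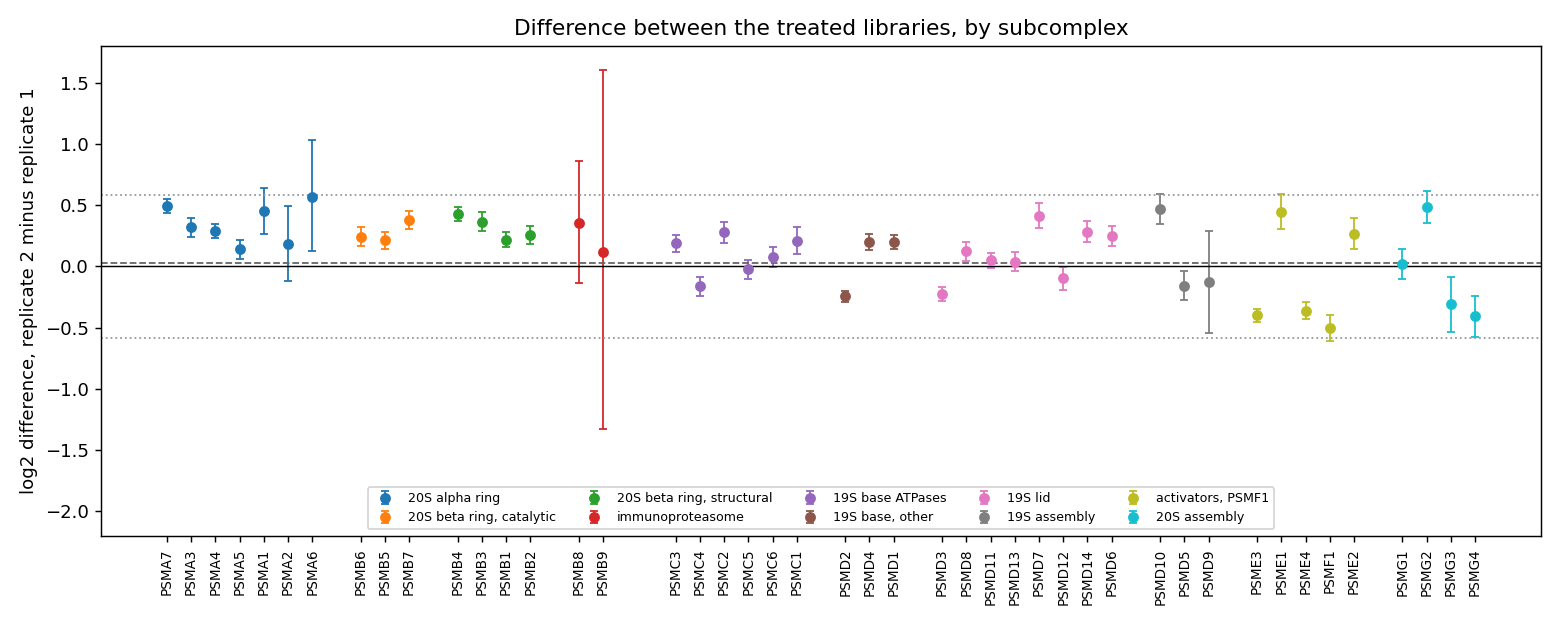
Difference between the treated libraries (log2, replicate 2 minus replicate 1) for the 45 members at the expression minimum, with 95% counting intervals, coloured by subcomplex. The dotted lines mark 1.5-fold and the dashed line the median of all tested genes; all 14 standard core genes lie above 0 and no member lies past 1.5-fold.

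Transcript length moved with these differences across all genes. Of the 289 genes at 500 or more whose principal transcript is under 1000 bases, 90.3% were higher in replicate 2, with a median of 0.39. The median was 0.17 for 1153 genes of 1000 to 2000 bases, 0.065 for 1477 genes of 2000 to 3000 bases and -0.041 for 4094 longer genes. In these classes, in the same order, 69.7%, 58.7% and 44.1% of the genes were higher in replicate 2. The principal transcripts of the 14 standard core genes have a median length of 1012 bases, and those of the 17 base and lid genes 1991. Within the classes, the 9 members under 1000 bases had a median of 0.32 and the 15 members of 1000 to 2000 bases 0.25. The 4 members of 2000 to 3000 bases had a median of 0.048 and the 11 longer members 0.050. Across the 39 members at 500 or more, the difference and the log2 length had Pearson's r = -0.38 and Spearman's rho = -0.40, and across 7013 genes at that level r = -0.32 and rho = -0.31. These are correlations across genes of the same 2 libraries, and genes are not independent replicates. The part of length in the core pattern was not tested.

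**Figure D4:**
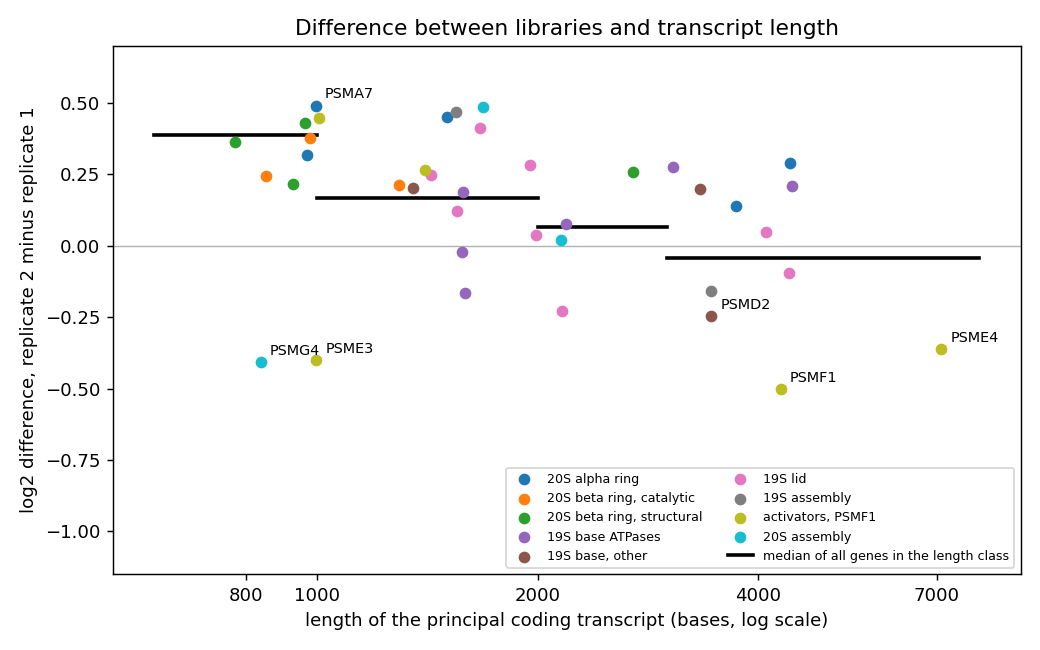
Difference between the treated libraries (log2, replicate 2 minus replicate 1) against the length of the principal coding transcript (log scale) for the 39 members at 500 normalized counts or more, coloured by subcomplex; black lines are the medians of all genes in each length class. The class medians go from 0.39 for the shortest to -0.041 for the longest genes, and PSME3 and PSMG4 lie below 0 among short principal transcripts.

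In the class under 1000 bases, 7 of the 9 members were higher in replicate 2. The other members, PSME3 and PSMG4, lay below 0, at -0.40 and -0.41. Their principal transcripts have 998 and 838 bases and their longest annotated ones 3366 and 4603. PSMB4 (964 and 2067 bases) and PSMB1 (928 and 1939 bases) also differ in this way and lay above 0, at 0.43 and 0.22. PSME3 is at chr17:42824385-42843758 and PSMG4 at chr6:3231403-3303373, both on the plus strand.

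Genes that work with the proteasome but carry other symbols were taken from a list of pathway genes. Of 12 listed partners 0 of 12 reached 1.5-fold between the libraries and 6 were higher in each, where 12.3% of genes at 500 or more reached it and 53.5% were higher in replicate 2. POMP, the maturation factor of the core, was the highest at 85.2 ± 6.20 RPKM (SD, n = 2), followed by the ubiquitin receptor ADRM1 at 57.1 ± 3.91. The nuclear import adaptor AKIRIN2 had the largest gap, with 988 and 1407 reads (0.48). KIAA0368, which encodes the adaptor ECM29, had 5174 and 3880 reads (-0.44) and has no length in the annotation under that symbol.

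Among ubiquitin and E1 genes, RPS27A, a fusion of ubiquitin with a ribosomal protein, had normalized counts of 14784 and 28417, 1.92-fold apart. The ubiquitin gene UBB differed by 1.47-fold (4598 and 6740) and the E1 enzyme UBA1 by 1.04-fold, both higher in replicate 2. Of the coding bases of UBB 56.2% lie in exons on the opposite strand. The same holds for 59.5% of those of IRF1, 40.1% of MAFG and 29.6% of ADRM1. With the strand setting not given, the values of these genes are uncertain. Of 10 shuttle and segregase genes, the highest was VCP, the ATPase that extracts ubiquitinated proteins, at 123 ± 13.9 RPKM. DDI2, the protease that activates NFE2L1, had 2135 and 1410 reads (-0.62). It was 1 of 10 in that list past 1.5-fold, a share near the 12.3% of all genes at 500 or more. NFE2L1 itself had 4534 and 4470 reads (40.0 ± 2.87 RPKM), a log2 difference of -0.045 with a counting interval of -0.11 to 0.015. Its relative NFE2L2 stood at 4.66 ± 1.46 RPKM and was higher in replicate 1 (630 and 438 reads). The small MAF partners differed in direction: MAFF was 1.99-fold higher in replicate 2 on 73 and 149 reads, MAFK was higher in replicate 1 (401 and 278 reads, -0.55) and MAFG differed by 0.031 (910 and 946 reads).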

How the data were processed

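Poly(A)-selected RNA was sequenced as paired ends. The authors deposited a normalized signal per gene, which the values show to be whole reads over a size factor (100% lie within 0.01 reads of a whole number). Size factors were 0.932 and 0.948, and whole reads were recovered with them. Trimmomatic 0.36, STAR, featureCounts 1.5.3, DESeq2 1.26.0 and hg38 were used per the submitters' processing notes, which give no roles. Annotation, strand setting and gene filter: not given in the sources used here. Columns were matched to samples by name, and 7 columns that matched none were not used, so the planned edgeR comparison with E8 was not run.

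Exon lengths, coding overlap and positions came from GENCODE release 29 (GRCh38), where 19283 listed genes and all 46 members had a length. The principal transcript was the one with the best APPRIS rank, then the longest coding sequence. Promoters came from RefSeq on GRCh38.p14. Counting intervals are exact (Clopper-Pearson) 95% intervals and cover counting error only. The pseudocount of 1, added before the log2, shrinks the differences and folds of low genes, and the counting intervals do not use it. TMM factors came from edgeR 4.0.16 in R 4.3.3. The procedure was tested on simulated data. The rule for named genes was the highest and lowest member of each subcomplex by mean RPKM, the highest gene of each other pathway list, and genes past 1.5-fold. Other genes with values were chosen after their values were seen. Some genes that this rule names are not reported here. The members and lists were chosen with earlier results of these data known.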

Additional observations from a re-analysis of the deposited data

How the results depend on the processing

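The median difference of the members between the libraries was 0.20 on the authors' scale and 0.0997 with total reads as the scale. On that scale 1 member passed 1.5-fold in place of 0, PSMF1 at a log2 difference of -0.60, and 29 members in place of 33 were higher in replicate 2, since 4 changed sign. TMM factors, a pseudocount of 5, minimum counts of 50 or none, a limit of 2-fold and leaving out the members that share coding sequence left the count past the limit at 0 and the number higher in replicate 2 between 30 and 33. The median level of the members, 27.1 RPKM, was 37.7 with the longest transcript as the length, 57.3 with the principal transcript and 31.1 without the members that share coding sequence; the last 2 were chosen after seeing the data. Leaving out 1 library gave 25.4 to 27.9 RPKM. No paired analysis was possible because only 1 group was analysed; the test against E8 and its alternatives (DESeq2, no expression minimum, the replicate block, each library left out) were not run. Depth limits PSMB9 and PSMB10, with at most 10 reads in a library.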

Other observations

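The low counts of members that share coding sequence have a counterpart among all listed protein-coding genes. The 623 genes with over 50% of their coding bases in exons of another gene on the same strand had a median normalized count of 106 (quartiles 17.6 and 472), against 497 (97.3 and 1311) for the 13192 genes with no such base. These are descriptions of the same 2 libraries, and such genes can differ in other ways that were not examined.

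Of 32 pseudogenes in the annotation named after a listed member, 4 were listed in the table, and values are given here for 3 of them. PSMC1P1 had 13 and 7 reads, PSMD10P1 5 and 3, and PSME2P2 1 and 5. The reads of their parent genes were far higher: PSMC1 (1235 and 1454), PSMD10 (907 and 1276) and PSME2 (914 and 1119).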
